A study of Canis lupus familiaris with 20 samples.

Results

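The genes described here are 176 dog genes whose RNA in vertebral epiphyseal tissue was more abundant at postnatal day 14 than at day 9 in control dogs and in dogs with mucopolysaccharidosis VII (MPS VII) alike. They were chosen by measured values, from 24580 genes in the deposited count table, of which 14550 passed a filter on low counts and were tested. The choice was made on log2 CPM, where CPM is a gene's count scaled to the size of its library, after library sizes were corrected by edgeR's TMM factors. A member had a mean log2 CPM at least 1 unit higher at day 14 in controls and in affected dogs. That is about a doubling of the geometric mean, and the plain mean CPM of a member can change by less. Its lowest day 14 control library also lay above its highest day 9 control library, and its 2 genotype means lay within 0.58 of each other at each age. Mitochondrial genes and genes starting in 7 listed genome regions were left out, which removed 5 genes. Every age and genotype comparison of the 4 groups entered this choice, so the values from them are given as a description of the members.

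The study compared dogs homozygous for MPS VII, called affected, with heterozygous dogs, called controls, at postnatal day 9 and day 14. Each of the 4 groups held 5 animals, and 1 library was made per animal from the cartilaginous epiphyses of the T12 vertebra, its cranial and caudal ends combined. The dogs belong to a naturally occurring model with a missense mutation in GUSB, the beta-glucuronidase gene, and affected and control dogs were matched by litter. Heterozygous controls carry 1 mutant copy too, so no group was free of the mutant allele. The sources used here do not say which litter, sex or sequencing batch a library belongs to, and replicate numbers follow the order of the samples only. Because whole tissue was sequenced, fewer cells of a type and less RNA per cell cannot be told apart in any value below.

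MPS VII is a lysosomal storage disease in which the enzyme beta-glucuronidase is deficient and glycosaminoglycans, the sugar chains of cartilage matrix, accumulate in cells. The epiphysis of a newborn dog's vertebra is cartilage. In secondary ossification its chondrocytes enlarge, vessels and bone-forming cells enter, and bone replaces the cartilage, and this conversion is known to fail or lag in MPS VII vertebrae.

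The files pair no gene identifier with a symbol, and 0 identifiers matched the symbol table used here. The members are therefore named by chromosome, start and end in the CanFam3.1 genome build that the labels give, with the exons of each gene model, and no function is given for any of them. For the same reason the level of the mutated gene and of markers of cartilage, bone, blood or vessel cells was not analysed here, so the labelled tissue was not checked against markers.

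Depth and age moved together. The libraries held 22703756 to 28028365 counts in day 9 controls and 16975358 to 20766128 in day 14 controls, and 21419930 to 27102423 and 15772761 to 22471728 in affected dogs. Day 9 was deeper in both genotypes (exact two-sided permutation test, p = 0.00794 in controls and 0.0159 in affected dogs, both 0.0159 after Benjamini-Hochberg adjustment over 2 tests, 0.00794 being the smallest p this design allows). In controls the TMM factors were also lower at day 9 than at day 14, at 0.76 to 1.02 against 1.04 to 1.29. In affected dogs they overlapped, at 0.78 to 1.18 and 0.97 to 1.14, and day 9 replicate 3 had the highest factor of that genotype. With all libraries thinned to the smallest total, the rule found 196 genes, of which 164 were among the 176. That alternative was chosen after the data were seen.

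The rule narrowed the tested genes in steps. A mean at least 1 log2 unit higher at day 14 in controls was found for 1405 genes, and 1137 of these also had separate control libraries. Of those, 811 did not reach 1 in affected dogs and 326 did. The genotypes differed by more than 0.58 at 1 age or both for 145 of the 326, and the listed regions took out 5 more, which left 176, or 1.21% of the tested genes. The same rule turned to falls found 59 genes.

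**Figure D1:**
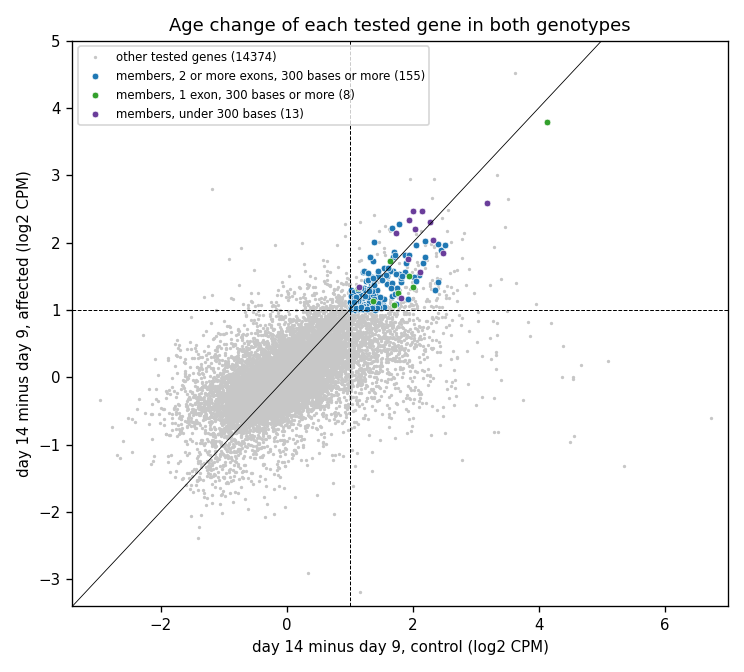
Mean log2 CPM at day 14 minus day 9 in controls (horizontal axis) and in affected dogs (vertical axis) for each of the 14550 tested genes. Dashed lines mark the threshold of 1 in each genotype, the solid line marks equal change, and colour marks the 3 structural classes of members. The members sit in the upper right corner by construction, with medians of 1.36 and 1.28, and the member farthest out stands at 4.14 and 3.79.

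Over the 176 members the age change had a median of 1.36 log2 units in controls, with quartiles of 1.16 and 1.71, and 1.28 in affected dogs, with quartiles of 1.11 and 1.53. These are folds of 2.57 and 2.43. Over all tested genes the medians were -0.05 and -0.06, with quartiles of -0.42 and 0.41 in controls and -0.31 and 0.30 in affected dogs. A median near 0 is what the TMM scaling sets. In affected minus control terms the members' levels had a median difference of -0.04 at day 9, between -0.56 and 0.56, and of -0.11 at day 14, between -0.58 and 0.43. The mean change was larger in controls for 108 members and larger in affected dogs for 68. A change of at least 1.5 in both genotypes was reached by 37 members and one of at least 2 by 8.

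In the edgeR quasi-likelihood fit over all 20 libraries, all 176 members had an adjusted p under 0.05 for higher levels at day 14 in controls, where 21.8% of all tested genes did. In affected dogs 172 of 176 were called higher, where 12.7% of all tested genes were. The rule itself required separate control libraries, which 20.2% of all tested genes had in that direction. It did not ask for them in affected dogs, where 158 members had every day 14 library above every day 9 library and 18 did not, against 7.96% of all tested genes. All these comparisons entered the choice, so no reading is drawn from the members' counts.

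Between genotypes, edgeR called 5 members at day 9, 2 higher and 3 lower in affected dogs, where 8.38% of all tested genes were called in either direction. At day 14 it called 15, 2 higher and 13 lower, where 22% of all tested genes were called. The age change itself differed between genotypes for 0 members by edgeR, where 3.26% of all tested genes were called. An unadjusted edgeR p under 0.05 was found for 10 of the 176 members and for 2689 of the 14550 tested genes. The limit of 0.58 on the genotype means keeps these counts low.

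The rule itself sets the higher day 14 group means in both genotypes. The 4 members that edgeR did not call in affected dogs were singled out after their values were seen. On chromosome 18, the gene at 34806369-34946658 (19 exons) was 0.81 ± 0.31 (SE) log2 higher at day 14 in affected dogs, with an edgeR adjusted p of 0.0624. This is edgeR's fitted change, which can differ from the difference of mean log2 CPM that the rule used. Its affected day 9 libraries held 2.68, 3.47, 6.60, 1.41 and 1.52 CPM, and its day 14 libraries held 4.13, 5.33, 5.19, 7.15 and 5.82 CPM. The overlap came from the day 9 library of replicate 3 at 6.60 CPM. Without that library the same gene's change was 1.3 with an edgeR adjusted p of 0.000548. The other 3 were low in every library. They were a 70-base gene at 45680528-45680597 on chromosome 12 (2.03 ± 0.77, adjusted p = 0.0589 in edgeR), a 115-base gene at 17234522-17234636 on chromosome 7 (1.53 ± 0.60, adjusted p = 0.0694) and a 10-exon gene at 42578659-42589611 on chromosome 24 (1.81 ± 0.69, adjusted p = 0.0611). The chromosome 12 gene had 0, 1, 1, 2, 2, 2, 10, 11, 11 and 0 counts over the 10 day 9 libraries of both genotypes, with no order among them, and 6 to 23 counts at day 14. In controls its edgeR adjusted p of 0.0376 rose to between 0.0512 and 0.0918 when day 9 control replicate 2, 3 or 5 or day 14 control replicate 1, 3, 4 or 5 was left out. DESeq2, as an alternative, called these 4 higher in affected dogs. The rule itself asked for a rise of at least 1 log2 CPM there, so no reading is drawn from that call.

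Another member was called by a narrow margin. The 26-exon gene at 122897137-123043373 on chromosome X held 1.36, 2.09, 3.87, 1.32 and 0.552 CPM in day 9 affected dogs and 3.40, 3.24, 4.58, 4.87 and 2.42 CPM in day 14 affected dogs. Replicate 3 at day 9 lay above 3 of the 5 day 14 libraries. The change was 1.00 ± 0.36 (SE) log2 with an edgeR adjusted p of 0.0479, and this p rose to between 0.0516 and 0.106 in turn without day 9 control replicate 1, 3 or 5, day 9 affected replicate 1, 2, 4 or 5, or day 14 affected replicate 1, 2, 3 or 4. Its control libraries were apart, at 0.812 to 2.09 CPM and 2.59 to 3.71 CPM.

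The member that stood farthest from the rest was a single-exon gene model of 789 bases on the minus strand of chromosome 27, at 5411374-5412162 (ENSCAFG00000031299). Its control libraries held 0.418, 0.384, 0.572, 0.928 and 0.493 CPM at day 9 and 11.9, 10.5, 9.64, 12.3 and 10.4 CPM at day 14. Its affected libraries held 0.772, 1.25, 0.158, 0.423 and 0.735 CPM at day 9 and 7.67, 9.38, 11.7, 9.00 and 7.76 CPM at day 14. Every day 14 library lay above every day 9 library of either genotype by a wide gap. The change was 4.14 log2 CPM in controls, a 17.6-fold rise, and 3.79 in affected dogs, 13.8-fold. Another gene model on the opposite strand, at 5411155-5457509, shares 646 of its exon bases. That gene had a mean of 24.9 CPM and age changes of 0.44 and 0.13. The sources used here do not give the strand setting of the counting, so the reads of the 2 models may not be fully told apart, and what this adds to the value was not tested.

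A multi-exon gene on chromosome 8, at 30393646-30408409 (7 exons, ENSCAFG00000028645), was the only member with 2 or more exons and at least 300 exon bases that changed by at least 2 log2 units in both genotypes. In controls it held 23.1, 21.7, 25.3, 22.7 and 19.3 CPM at day 9 and 119.8, 99.6, 84.3, 115 and 96.5 CPM at day 14. In affected dogs it held 23.4, 22.2, 15.9, 25.1 and 19.9 CPM and then 79.3, 78.2, 123, 68.8 and 91.3 CPM. The lowest day 14 library of either genotype was more than double the highest day 9 library. Its means rose from 22.4 ± 2.18 to 103 ± 14.4 CPM (SD, n = 5) in controls and from 21.3 ± 3.56 to 88.1 ± 21.1 CPM in affected dogs, changes of 2.19 and 2.03 on the log2 scale. Its 3' terminal exon takes up 4081 of 4575 exon bases.

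The gene at 11346197-11352276 on chromosome 10 (4 exons) reached higher levels. Control libraries went from 34.4, 22.4, 22.3, 25.2 and 17.2 CPM to 155, 143, 131, 132 and 119 CPM. Affected libraries went from 17.8, 24.1, 48.1, 24.2 and 22.9 CPM to 70.4, 124, 137, 81.7 and 109.7 CPM. Groups of different age did not overlap, and replicate 3 of the affected dogs was the highest of its group at both ages. The log2 changes were 2.51 in controls and 1.97 in affected dogs. Day 14 controls all lay above 118 CPM while 3 of 5 day 14 affected libraries lay below that, but the gene was not among those that edgeR called between genotypes.

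A more uneven member was the 12-exon gene at 39860978-39878155 on chromosome 24. Its day 14 control libraries held 4.03, 2.74, 18.7, 6.75 and 7.52 CPM, after 1.19, 1.28, 2.51, 0.58 and 0.806 CPM at day 9. Its day 14 affected libraries held 2.11, 3.14, 7.81, 10.7 and 3.54 CPM, after 1.18, 0.835, 1.19, 1.13 and 1.19 CPM. The day 14 values spread over 5 fold or more within a group while those of day 9 affected dogs nearly coincided. Within each genotype the ages still did not overlap. Across genotypes they did, since day 9 control replicate 3 at 2.51 CPM lay above day 14 affected replicate 1 at 2.11 CPM. Control replicate 3 was the highest library of its group at both ages, and the replicate numbers do not tie those libraries to 1 animal.

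**Figure D2:**
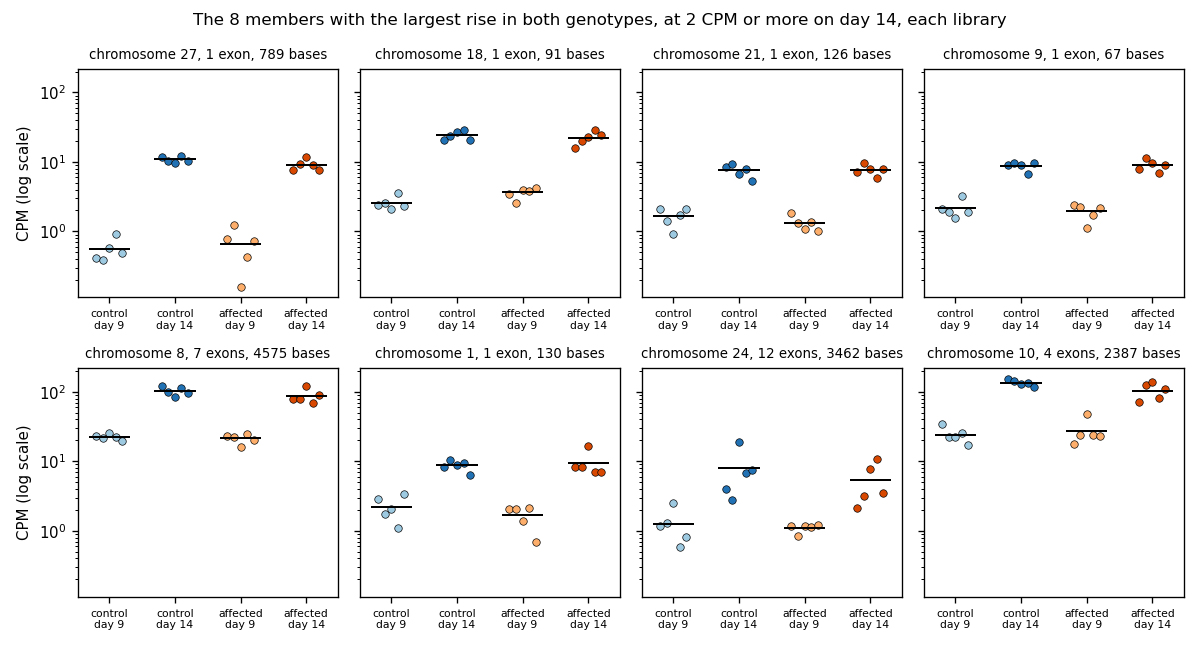
CPM in each of the 20 libraries of the 8 members with the largest smaller-of-both change among those with a mean of at least 2 CPM in both day 14 groups, on a log axis shared by all panels. Points are libraries, 5 per group, and bars are group means. Day 14 libraries lie above day 9 libraries of the same genotype in all 8 panels, and the chromosome 24 gene has the widest day 14 spread, 2.74 to 18.7 CPM in controls.

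Very short gene models made up much of the top of the ranking. Of the 176 members, 13 (7.39%) had under 300 exon bases, against 392 of all tested genes (2.69%), and they supplied 6 of the 8 members with at least 2 log2 units in both genotypes. Their median change was 2.03 in controls and 2.14 in affected dogs. Among all tested genes of that length the medians were -0.19 and -0.03, so short models as a class did not share the direction. Of the 13, 12 had a single exon.

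The most abundant of them was a 91-base model at 51703501-51703591 on chromosome 18. It went from 2.41, 2.60, 2.07, 3.59 and 2.33 CPM to 20.8, 23.8, 26.8, 28.9 and 20.4 CPM in controls. In affected dogs it went from 3.45, 2.59, 3.99, 3.86 and 4.27 CPM to 16, 19.9, 22.9, 28.4 and 24.2 CPM. No day 14 library came near any day 9 library, and the genotypes overlapped at each age. The changes were 3.18 and 2.58 log2 CPM. Per kilobase of exon it had the highest mean level of all members, 145 CPM per kb over the 20 libraries, followed by the 67-base model of chromosome 9 described next at 81.8 and a 180-base model on chromosome 10 at 69.5.

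Of these 13 short models, 4 lie inside a longer gene model on the same strand, and each of these longer genes was far more abundant and did not share the rise. The 130-base model at 25838794-25838923 on chromosome 1 held 2.82, 1.75, 2.03, 1.10 and 3.40 CPM in day 9 controls and 8.31, 10.5, 8.90, 9.47 and 6.44 CPM in day 14 controls. Its affected libraries held 2.04, 2.09, 1.38, 2.12 and 0.689 CPM and then 8.36, 8.33, 16.6, 6.99 and 7.13 CPM. Ages did not overlap, and affected replicate 3 at day 14 stood above the other 4. The gene around it, at 25836709-25839118, had a mean of 509 CPM and an age change of -0.33 in each genotype.

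The model of 67 bases at 12301855-12301921 on chromosome 9 followed the same course. Controls held 2.09, 1.88, 1.54, 3.25 and 1.93 CPM at day 9 and 9.03, 9.70, 9.02, 6.66 and 9.73 CPM at day 14, and affected dogs held 2.41, 2.25, 1.11, 1.74 and 2.16 CPM and then 7.85, 11.6, 9.60, 6.99 and 9.16 CPM. Its host gene, at 12301009-12307315, had a mean of 552 CPM and changes of 0.27 and 0.17. The other pairs were a 71-base model on chromosome 25 at 12328653, with changes of 2.49 and 1.85 inside a host at 567 CPM with changes of -0.44 and -0.34, and a 73-base model on chromosome 37 at 14715821, with changes of 2.32 and 2.05 inside a host at 313 CPM with changes of -0.55 and -0.37. All 4 hosts were tested and 0 were members. The short models of chromosomes 1, 9, 25 and 37 share 0, 1, 0 and 0 exon bases with their hosts. They thus lie almost wholly between the hosts' exons. Reads of a host from outside its exons could count toward a model inside it, and what that adds was not tested.

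Low counts limit the values of the short members. The chromosome 37 model had 0 to 3 counts in each of the 10 day 9 libraries and 4 to 21 counts at day 14. The chromosome 25 model had 1 to 7 counts and then 8 to 35. Their folds therefore rest on few reads, and the log2 CPM with its prior count of 2 understates them. The table also showed a second difference. Of counts above 0 and under 200, 68.6% were even numbers over all tested genes and 68.5% over members with 2 or more exons, but 45.5% of 222 such values were even in the short members and 59.99% in all tested genes under 300 bases. What this parity reflects was not tested.

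On chromosome 21, 2 short members lie close together on the plus strand, at 7020768-7020839 (72 bases) and 7022772-7022897 (126 bases), and another member, a multi-exon gene, starts within 1 Mb of both. The 126-base model held 2.13, 1.41, 0.925, 1.74 and 2.10 CPM in day 9 controls and 8.55, 9.22, 6.63, 8.02 and 5.23 CPM at day 14. Affected libraries held 1.82, 1.34, 1.07, 1.36 and 1.01 CPM, then 7.07, 9.57, 8.04, 5.77 and 7.90 CPM. Its neighbour went from 0.672 ± 0.0872 to 2.84 ± 0.353 CPM in controls and from 0.526 ± 0.295 to 2.81 ± 0.835 CPM in affected dogs (SD, n = 5). The changes of the pair were alike in size, 2.15 and 2.47 for the 126-base model and 1.94 and 2.33 for the 72-base model. The means of both changed more in affected dogs, a difference that edgeR did not call. The multi-exon gene, at 7471482-7523715 (11 exons), changed by 1.39 and 1.37 at a higher level, from 19.8 ± 1.83 to 52.0 ± 4.15 CPM in controls.

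Single-exon models of at least 300 bases formed a second small class of 8 members, with median changes of 1.74 in controls and 1.33 in affected dogs. All 8 were called higher in affected dogs, where 12.7% of all tested genes were, and 7 had separate libraries there, against 7.96%. The rule asked for a rise in affected dogs, so no reading is drawn from these counts. Besides the chromosome 27 model, 1 of them is the gene at 34657234-34658250 on chromosome 34, which went from 0.579 ± 0.304 to 2.03 ± 0.415 CPM in controls and from 0.704 ± 0.133 to 1.83 ± 0.469 CPM in affected dogs. The change was 1.77 and 1.26, and no day 14 library of a genotype fell to its day 9 range.

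The remaining 155 members had 2 or more exons, with median changes of 1.31 and 1.23. The 8 most abundant members were all of this class, with age changes between 1.02 and 1.51. The highest mean, 207.5 CPM over the 20 libraries, belonged to a 3-exon gene at 29675199-29706428 on chromosome X. Controls held 135, 118, 135, 136 and 138 CPM at day 9 and 266, 296, 261, 257 and 258 CPM at day 14. Affected dogs held 122, 138, 139, 118 and 107 CPM and then 238, 273, 380.0, 316 and 319.7 CPM. Day 9 groups of both genotypes overlapped, every day 14 library was above all of them, and the day 14 affected libraries reached higher and lower than the controls.

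Next came a 6-exon gene at 36928030-36952550 on chromosome 23. Its controls held 112, 98.8, 100.2, 96.5 and 105 CPM, then 241, 287, 199, 239 and 209 CPM, and its affected dogs 109, 129, 139.7, 108 and 107 CPM, then 261, 273, 314, 307 and 324 CPM. All 5 day 14 affected libraries lay above 4 of the 5 day 14 controls, and at day 14 edgeR called the gene 0.33 ± 0.11 (SE) log2 higher in affected dogs (adjusted p = 0.0353). The age changes were 1.19 and 1.33.

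The 5-exon gene at 14366925-14380753 on chromosome 18 was the other member called higher in affected dogs at day 14. Day 14 controls held 124, 132, 129.97, 130.3 and 130.4 CPM, a narrow group, and day 14 affected dogs held 151, 148, 199, 174 and 194 CPM, with no overlap. At day 9 the controls held 51.1, 50.0, 54.9, 54.0 and 55.3 CPM and the affected dogs 65.4, 67.1, 53.1, 60.3 and 71.0 CPM, which overlapped in 1 affected library. The genotype difference at day 14 was 0.42 ± 0.10 log2 (edgeR, adjusted p = 0.0027), inside the limit of the rule. Its own age changes were 1.29 and 1.45.

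Of the other abundant members, the 16-exon gene at 16593213-16649194 on chromosome 30 went from 105 ± 5.92 to 229 ± 12.3 CPM in controls and from 93.3 ± 20.7 to 227 ± 41.9 CPM in affected dogs. A 9-exon gene at 3709223-3778758 on chromosome 29 went from 73.6 ± 5.63 to 150.4 ± 9.56 and from 77.2 ± 10.6 to 163 ± 27 CPM. A 7-exon gene at 15373266-15427228 on chromosome 4 went from 58.5 ± 6.90 to 167 ± 18.8 and from 68.2 ± 8.01 to 152 ± 23.4 CPM. In these 3 the libraries of different age did not overlap in either genotype. The 2-exon gene at 28167328-28195057 on chromosome 8 behaved likewise, with changes of 1.09 and 1.05. The 13-exon gene at 15331068-15365425 on chromosome 30 did not, since day 9 affected replicate 3 held 100.1 CPM, above the lowest day 14 affected library at 92.1 CPM, while the other 4 day 9 affected libraries held 44.1 to 56.2 CPM.

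Over all tested genes, edgeR called 1640 higher and 1562 lower in affected dogs at day 14, beside the 2 and 13 members, whose genotype differences the rule limits. The examples that follow were singled out after their values were seen. The 8-exon gene at 32723159-32790654 on chromosome 22 was the only member called lower at both ages. Its means were 45.4 and 34.3 CPM in day 9 controls and affected dogs, a difference of -0.40 ± 0.11 (SE, edgeR adjusted p = 0.0274), and 111 and 78.4 CPM at day 14, -0.50 ± 0.11 (adjusted p = 0.0024). The 15-exon gene at 9927480-9968867 on chromosome 8 held 47.7 to 70.4 CPM in day 14 controls and 35.8 to 52.5 CPM in day 14 affected dogs, -0.47 ± 0.16 (edgeR adjusted p = 0.0374). Its age changes of 1.63 and 1.57 were nearly equal, since it was lower in affected dogs at day 9 too, at a mean of 14.4 against 18.6 CPM.

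Members with at least 1.5 log2 units in both genotypes ranged widely in how alike the 2 changes were. The 72-base model at 35833927 on chromosome 3 changed by 2.28 and 2.30, and the 21-exon gene at 61756153-61945727 on chromosome 15 by 1.62 and 1.63, although the latter was about 0.50 log2 lower in affected dogs at both ages. The changes were least alike in the 71-base model of chromosome 25 at 12328653, at -0.64 in affected minus control terms. It was followed by the 91-base model of chromosome 18 at 51703501 (-0.60), the chromosome 6 gene at 68364494 (-0.58) and a chromosome 12 gene (-0.57). The last, a 2-exon gene at 69982483-69987647, changed by 2.45 in controls and 1.89 in affected dogs. Its day 14 libraries held 45.0, 37.4, 32.2, 59.5 and 32 CPM in controls and 28.2, 33.1, 35.3, 21.6 and 24.4 CPM in affected dogs, after 4.70 to 10.4 and 6.08 to 9.36 CPM at day 9. The day 14 genotype groups overlapped in 2 affected libraries.

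As a set, the members differed from all tested genes in exon structure, which the rule did not use, though not every member did so. Their summed exon length had a median of 4263.5 bases (quartiles 2262.5 and 5484), against 2312 bases (1239 and 4139) over all tested genes, while the median number of exons was 7 against 9. The extra length sat at the 3' end. The 3' terminal exon, which in most genes holds the untranslated tail, had a median of 2821 bases against 562, and it exceeded 2000 bases in 108 members (61.4%) and in 3524 tested genes (24.2%). Among genes with 2 or more exons the medians were 3113.5 and 536 bases, and the shares over 2000 bases were 69.2% and 25.9%.

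The share of tested genes that were members followed the terminal exon closely. Among genes with 2 or more exons it was 20 of 6532 (0.306%) where that exon had up to 500 bases, and 3 of 1429 (0.210%) from 501 to 1000 bases. It was 25 of 1943 (1.29%) from 1001 to 2000 bases, 27 of 1390 (1.94%) from 2001 to 3000 bases and 81 of 2072 (3.91%) over 3000 bases. Across summed exon length the share was lowest from 300 to 999 bases, at 0.295%, and highest under 300 bases, at 3.32%, and from 5000 to 6999 bases, at 3.09%. Genes of 7000 bases and over fell back to 1.58%.

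**Figure D3:**
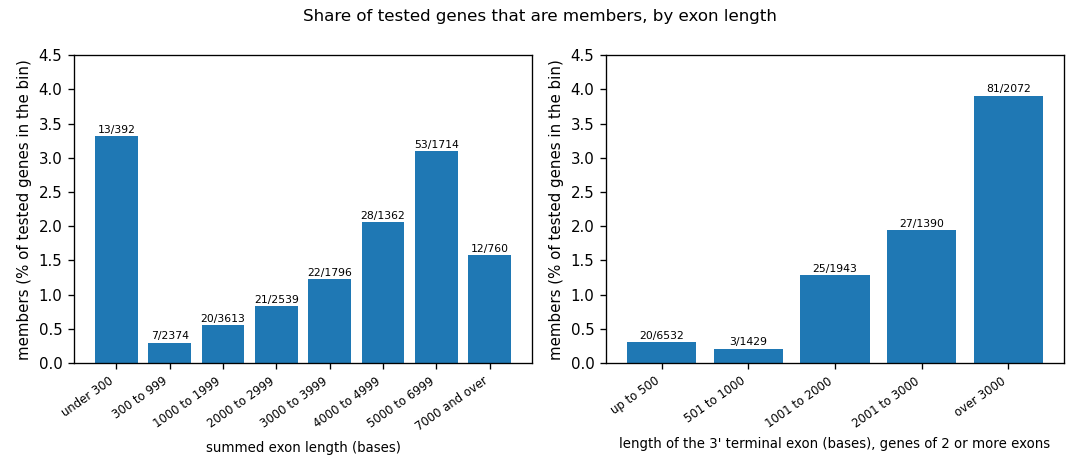
Percent of tested genes that are members, by summed exon length over all tested genes (left) and by length of the 3' terminal exon in genes with 2 or more exons (right). Numbers over the bars are members and tested genes in each bin. The right panel climbs from 0.306% in the first bin to 3.91% in the last, and the left panel has 2 peaks, under 300 bases and from 5000 to 6999 bases.

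Genes outside the set showed a weaker form of the same slope. In nonmembers the median age change went from -0.11 log2 units where the terminal exon had up to 500 bases to 0.15 where it had over 3000 bases in controls, and from -0.13 to 0.17 in affected dogs. The other sets of risers had shorter terminal exons than the members: 36.0% of the 811 genes that rose in controls and not by 1 in affected dogs exceeded 2000 bases, as did 40% of the 145 that rose in both and differed between genotypes. Of the 59 genes that fell by the mirrored rule, 0 had a terminal exon over 2000 bases, and their median summed length was 648 bases. With each library's smooth trend of log2 CPM on terminal exon length removed, an alternative chosen after the data were seen, the rule found 137 genes, of which 110 were among the 176 members. In that set 35.8% had terminal exons over 2000 bases. The labels give an RNA integrity number above 7 for all samples and no value per library, so its part in this pattern was not tested.

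Levels did not set the members apart to the same degree. Their mean CPM had a median of 18.3, from 0.292 to 207.5, against 12.8 over all tested genes, and per kilobase of exon the order turned, with a median of 5.42 CPM per kb against 5.71. The group means of the members had medians of 10.4 CPM in day 9 controls, 26.7 in day 14 controls, 10.7 in day 9 affected dogs and 26.0 in day 14 affected dogs. Together the members took 0.240% ± 0.029 of all counts in day 9 controls and 0.818% ± 0.137 in day 14 controls (SD, n = 5). In affected dogs the shares were 0.261% ± 0.042 and 0.708% ± 0.142. Unlike the CPM values, these shares are not corrected by the TMM factors, which in controls were lower at day 9 than at day 14.

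By place in the genome the members were spread out. They lay on all 39 chromosomes (1 to 38 and X), with 1 on an unplaced scaffold, and 96 of 176 on the plus strand. Chromosome 29 had the highest share of its tested genes among them, 8 of 154 (5.19%), and chromosomes 5 and 20 the lowest, 2 of 733 (0.273%) and 2 of 715 (0.280%). Members overlapped another gene model in 44 cases, 32 on the opposite strand and 15 on the same strand, and 20 shared exon bases with a model on the opposite strand.

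A few members were neighbours. On chromosome 6, genes at 68364494-68390586 (12 exons) and 68379297-68400785 (8 exons) lie on the same strand and share 1022 exon bases. How reads of shared bases were counted is not stated, so their counts may not be independent. The first changed by 2.10 in controls and 1.52 in affected dogs, from 2.23 to 9.42 and from 3.11 to 8.54 CPM. The second changed by 1.39 and 2.01, from 1.86 to 5.06 and from 1.32 to 5.38 CPM. Their genotype order was opposite, and the day 9 genotype difference was 0.43 for the first and -0.56 for the second. The other pair on chromosome 6, at 61559223-61584177 (15 exons) and 61727560-61757403 (16 exons), lie on opposite strands. The first of that pair was low, at 0.232 and 0.642 CPM in controls and 0.332 and 0.919 CPM in affected dogs, and its affected libraries overlapped between ages. Its edgeR adjusted p in affected dogs was 0.0212, and 0.0839 without day 14 affected replicate 3. The second went from 3.81 to 10.9 and from 4.02 to 8.15 CPM without overlap.

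Trios within 1 Mb were seen on chromosomes 21, 30 and 34. On chromosome 34 the multi-exon genes at 34871651-34898939 (8 exons) and 35309714-35322373 (4 exons) changed by 1.51 and 1.45 and by 1.73 and 1.82. The first went from 25 ± 2.69 to 71.5 ± 6.75 CPM in controls and from 23.6 ± 7.42 to 62.1 ± 12.5 CPM in affected dogs, the second from 17.1 ± 2.32 to 56.6 ± 7.05 and from 17.3 ± 5.09 to 59.7 ± 12.7 CPM. In both genes, day 9 affected replicate 3 was the lowest library of all, at 10.5 and 9.56 CPM. On chromosome 30 the abundant gene at 16593213 described above was joined by genes at 17082385-17141845 (10 exons), with changes of 1.10 and 1.13, and 17543229-17595323 (9 exons), with changes of 1.21 and 1.02. The former was 0.56 lower in affected dogs at day 9 and 0.53 lower at day 14, close to the limit of the rule.

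Seen library by library, the mean log2 CPM of the 176 members lay between 2.76 and 2.94 in day 9 controls, 4.23 and 4.5 in day 14 controls, 2.72 and 3.02 in day 9 affected dogs and 4.06 and 4.54 in day 14 affected dogs. The ages stood apart by more than 1 unit and the genotypes overlapped at each age, as the rule sets. Within the 3 structural classes the same order held. Members under 300 bases had group means of -0.19, 1.90, -0.31 and 1.71 in day 9 controls, day 14 controls, day 9 affected and day 14 affected dogs. The single-exon class had 0.64, 2.60, 0.75 and 2.39, and the class with 2 or more exons 3.26, 4.66, 3.24 and 4.56.

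**Figure D4:**
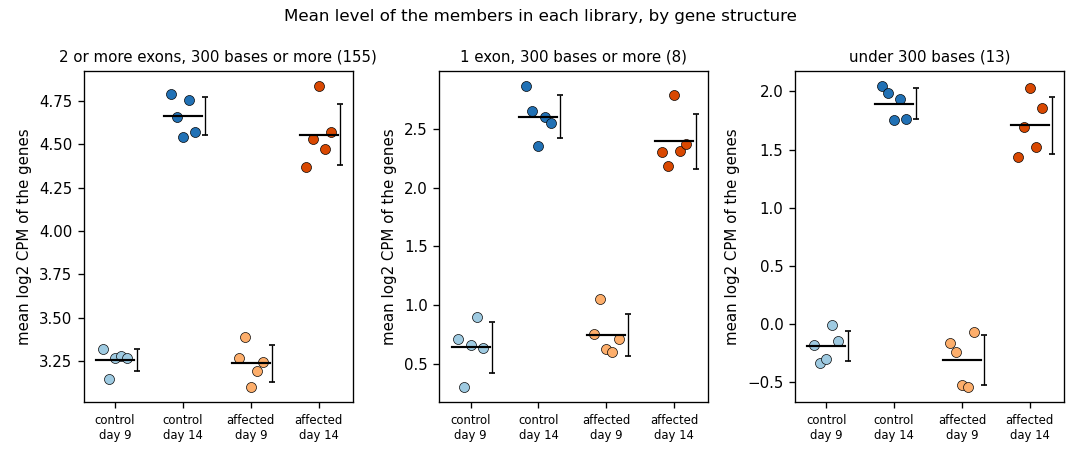
Mean log2 CPM of the members in each of the 20 libraries, in 3 panels for the structural classes, each with its own vertical axis. Points are libraries, horizontal bars are group means and vertical bars are 1 SD over 5 libraries. In each panel all day 14 libraries lie above all day 9 libraries, and control and affected libraries of an age overlap.

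The spread of a member within a group did not differ much from that of other genes. The SD of log2 CPM had a median of 0.19 in day 9 and in day 14 controls, against 0.21 over all tested genes, and of 0.29 and 0.27 in day 9 and day 14 affected dogs, against 0.34 and 0.28. Single libraries moved many members together. Day 14 affected replicate 3, the shallowest library of the 20, was the highest of its group for 73.3% of members and for 25.1% of all tested genes. Day 14 control replicate 1 was the highest of its group for 43.2% of members against 23.1%, and day 14 control replicate 3 the lowest for 46.6% against 25.6%. Day 14 affected replicate 1 was the lowest for 43.8% against 20.8%. Each library helps set the group means that the rule used, so these shares are not free of the choice of members.

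**Figure D5:**
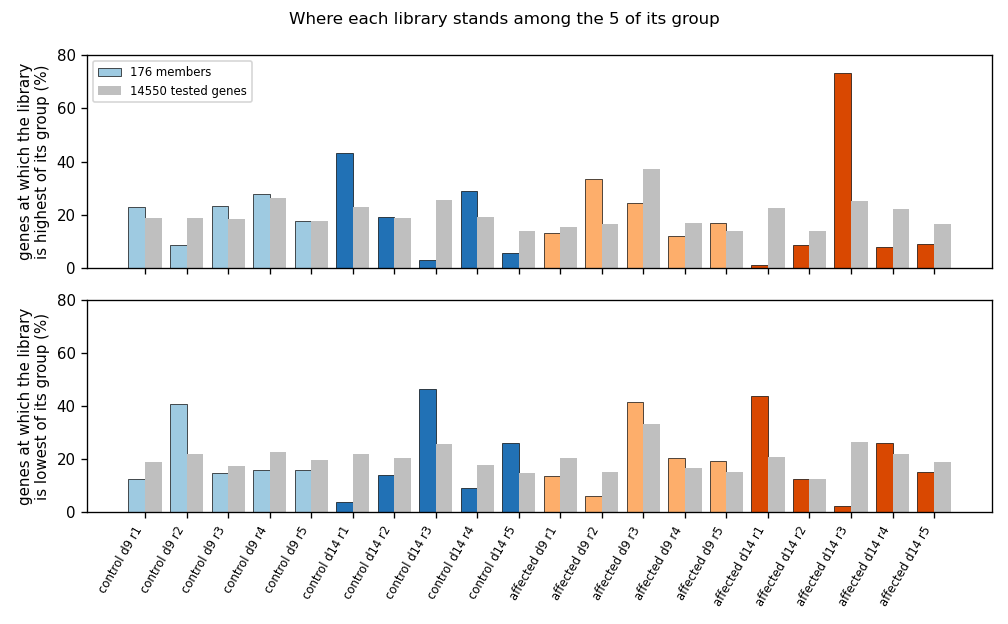
For each of the 20 libraries, the percent of genes at which it is the highest (upper panel) or the lowest (lower panel) of the 5 libraries of its group, for the 176 members (coloured bars) and all 14550 tested genes (grey bars). Day 14 affected replicate 3 stands out in the upper panel, at 73.3% of members against 25.1% of all tested genes. The shares of members are not free of the rule, since each library helps set its group mean.

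Leaving that library out kept 146 of the 176 members and gave 159 genes in all, and edgeR then called 167 of the 176 higher at day 14 in affected dogs. Over all tested genes it then called 2227 changed with age in affected dogs in either direction, against 3297 with that library. The median affected age change of the 176 was 1.23 without it and 1.28 with it. That library was the shallowest of its group and mostly the highest for the members. Among day 14 controls the shallowest library, replicate 3, was instead the lowest for 46.6% of members. The part of depth in these ranks was not tested.

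The demand for separate control libraries bears on the spread of single animals around their group mean in both control groups. Each library also helps set the group means that the rule used, so the choice of members is not free of single libraries. Of the 176 members, 155 were found again without day 9 affected replicate 3 and 146 without day 14 affected replicate 3. Over the 20 libraries, deviations from the group mean had a mean Pearson correlation of 0.224 between pairs of members, against 0.0013 over pairs of all tested genes. The points share libraries and scaling, so this is a description, with no test. It was 0.238 in members with 2 or more exons, 0.183 in single-exon members and 0.112 in those under 300 bases, and 0.149 in the 811 genes that rose in controls and not by 1 in affected dogs. The first principal component of the deviations held 25.1% of the members' variance and 24.2% of that of all tested genes, so the members did not stand apart by that measure. The largest weight on the component belonged to day 9 affected replicate 3, at -0.74. Without that library the mean correlation was 0.261 over members and 0.0018 over all tested genes.

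Members followed the first component to different degrees, with correlations from -0.62 to 0.93. It was above 0 for 140 members and above 0.5 for 74. The closest was the abundant gene at 16593213 on chromosome 30 (0.93), whose day 9 affected libraries held 88.6, 110.1, 59.5, 108 and 100.4 CPM and whose day 14 affected libraries held 190.0, 210.0, 290.1, 196 and 247 CPM. Replicate 3 was the lowest of its group at day 9 and the highest at day 14. A 16-exon gene at 57111365-57155016 on chromosome 1 (0.91) had the same pattern, at 6.12 CPM against 11.5 to 16.3 in the other day 9 affected libraries and 50.2 CPM against 29.1 to 37.8 at day 14. The 3 members with the lowest correlations were the 19-exon gene of chromosome 18 at 34806369 (-0.62), a 7-exon gene at 19924450-19953220 on chromosome 18 (-0.54) and a 2-exon gene at 103746855-103748242 on chromosome 1 (-0.51). The 7-exon gene held 7.90 CPM in day 9 affected replicate 3 and 2.21 to 3.72 CPM in the other 4, which made it overlap with the day 14 range of 7.90 to 10.9 CPM.

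The thresholds, which apply to means of log2 CPM and not to edgeR's fitted changes, divided near-equal genes. Just inside the age threshold were the genes on chromosome 18 at 34806369 (1.08 in controls and 1.00 in affected dogs), chromosome 7 at 75187884-75311885 (1.02 and 1.01) and chromosome 8 at 27333553-27441372 (1.40 and 1.01). Just outside were genes on chromosome 3 at 18415684-18422454 (1.08 and 0.998), chromosome 18 at 5564447-5570937 (0.998 and 1.26) and chromosome 15 at 2476514-2487833 (0.997 and 1.23). At the genotype limit, the genes on chromosome 37 at 14715821 (-0.58 at day 14), chromosome 2 at 51249057-51295342 (-0.57 at day 14) and chromosome 6 at 68379297 (-0.56 at day 9) stayed in. A gene at 62927874-63008528 on chromosome 6 was left out at -0.58 at day 14, with age changes of 2.41 and 1.37, one at 37812344-37848409 on chromosome 18 at 0.60 at day 9, and one at 48646194-48844777 on chromosome 12 at -0.60 at day 14.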

How the data were processed

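A stranded mRNA kit and paired 100-base reads were used for all 20 dog libraries, per the labels' protocols, which name the CanFam3.1 genome and Ensembl build 77 for mapping. The submitters' processing notes list edgeR, HTSeq, STAR 2.4.0j, bcl2fastq and CASAVA 1.8.2, with no role or order. The authors deposited unnormalised counts for each gene, beside exon positions and summed exon length. How strand and reads matching several genes were treated is not stated in the sources used here. No count column was without a sample (0).

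The counts went into edgeR 4.0.16 (R 4.3.3). The filterByExpr filter on 4 groups kept 14550 genes and dropped 10030, which held 0.0413% of counts. CPM and log2 CPM (prior count 2) were computed from TMM-scaled totals. A single quasi-likelihood fit of all 20 libraries, with 1 mean per group, gave every call at a Benjamini-Hochberg adjusted p under 0.05 over all tested genes. The biological coefficient of variation was 0.239, and standard errors are absolute log2 fold changes over the root of F. Code was tested on simulated data. Libraries of a group were checked as separate samples (chi-square per gene 16.7 to 607 over 40 pairs). Affected and control dogs were matched by litter, but the litter of each library is not given, so the fit left that matching out. Nothing else is said of their independence, so p-values measure the spread between these libraries.

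The members, their rule and the lists were chosen with earlier results of these data known. The rule for named genes took the 8 most abundant members, the 8 with the largest smaller-of-both change at 2 CPM or more, the 4 widest within a group, neighbours, the 3 on each side of each threshold, those with the most and least equal changes, and those closest to and farthest from the first component. Gene lists and cell markers fixed by symbol were not applied, since no symbols matched. Alternatives were DESeq2 1.42.0 and its size factors, no filter, halved counts, other prior counts, separate fits and each library left out.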

Additional observations from a re-analysis of the deposited data

Results flagged for a closer look

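Within each group of 5, the highest and lowest library of the 47 named members were compared with the rest, 200 groups in all, counting the mean levels and depth. In 12 of them 1 library stood apart by Dixon's ratio above 0.71. Chance alone gives about 1 in 20 groups, and 12 of 200 is close to that. Some named members were picked for a wide range within a group or for following the first component, so that rate need not hold for them.

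Day 9 affected replicate 3 was the low library for 3 members. It held 9.64 CPM for the chromosome 23 gene at 11891657, where the others held 20.04 to 24.8 CPM. It held 10.47 CPM for the chromosome 34 gene at 34871651, where the others held 25.6 to 28.3 CPM. It held 48.8 CPM for the chromosome 8 gene at 28167328, where the others held 64.9 to 72.8 CPM. The same library had the largest weight on the first component of the members. Some named members were picked because they follow that component, so this is not a separate observation.

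Day 14 affected replicate 3 held 16.63 CPM of the 130-base model at 25838794 on chromosome 1, and the others held 6.99 to 8.36 CPM. Day 14 affected replicate 2 held 8.85 CPM of the chromosome 6 gene at 68379297, against 3.98 to 4.74 CPM. Day 9 affected replicate 2 held 0.835 CPM of the chromosome 24 gene at 39860978, against 1.13 to 1.19 CPM.

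In controls, the X-linked gene at 29675199 had a low day 9 library, replicate 2 at 117.9 CPM against 134.9 to 137.7 CPM, and a high day 14 library, replicate 2 at 295.9 CPM against 257 to 266 CPM. Day 9 replicate 1 held 31.4 CPM of the chromosome 30 gene at 17082385, against 18.1 to 20.8 CPM. Day 9 replicate 2 held 16.2 CPM of the chromosome 8 gene at 9927480, against 18.8 to 19.8 CPM. Day 14 replicate 1 held 123.9 CPM of the chromosome 18 gene at 14366925, where the others held 129.97 to 132.1 CPM, a small gap in a narrow group. Day 14 replicate 4 held 6.66 CPM of the 67-base model at 12301855 on chromosome 9, against 9.02 to 9.73 CPM.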

How the results depend on the processing

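The rule found 176 members under the chosen settings, 198 with median-ratio size factors, 200 without the filter on low counts, 188 with counts halved, and 180 and 175 with prior counts of 0.5 and 5. Of the 176, 167 to 173 were found again under each of these 5. With each library left out in turn the number was 159 to 213, lowest without day 14 affected replicate 3. Removing the trend on summed exon length, an alternative chosen after the data were seen like the thinning and the terminal exon trend, left 154, of which 125 were members.

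The first component held 23.0% of the members' variance with a prior count of 0.5 and 26.5% with a prior count of 5, and 23.1% to 27.9% with a library left out. The mean correlation was 0.174 to 0.280 with a library left out. Fitted on their own libraries alone, 1466 genes changed with age in affected dogs (3297 in the joint fit) and 711 differed between genotypes at day 9 (1220). The cause was not tested, and those fits have fewer samples. With a library left out, these counts were 2227 to 3902 for age in affected dogs, 5186 to 7246 for age in controls (6187), 896 to 1448 for genotype at day 9 and 2448 to 4382 for genotype at day 14 (3202). Members called higher at day 14 were 167 to 173 of 176 in affected dogs and 175 or 176 in controls. With all libraries 12.7% and 21.8% of all tested genes were called higher there, and the rule itself asked for these rises.

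Over 94 age changes of named members, 2395 alternative values kept direction and call, 25 lost the call, 13 gained it and 0 reversed. The losses were mostly of the 70-base chromosome 12 model in controls and, in affected dogs, of the chromosome X gene at 122897137-123043373 (edgeR adjusted p = 0.137 on affected libraries alone). Counts near 0 limit the short models. No paired analysis by litter was possible, because the sources used here do not give the litter that would tie animals across groups.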
